A study of Mus musculus with 28 samples.

Results

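The comparison described here sets motor cortex against dorsal striatum, the 2 ends of the corticostriatal pathway, in mice that carry 2, 1 or no working copies of Hdc. Its members are the libraries whose label gives either tissue, 12 of the 28 in the series, and the measured values were not used to choose them. Hdc encodes histidine decarboxylase, the enzyme that makes histamine. The motor cortex libraries are 1 wild type (WT), 2 heterozygous (het) and 2 knockout (KO); the dorsal striatum libraries are 2 WT, 3 het and 2 KO. All came from adult male mice aged 2 to 3 months, of a constitutive Hdc knockout line backcrossed onto C57Bl/6, and no treatment is given in the labels. Each library is poly-dT and random primed cDNA from bulk dissected tissue, and its values are read counts per gene. Counts on genes ran from 3732822 to 4507411 in the motor cortex (median 4269818) and from 3912708 to 5150280 in the dorsal striatum (median 4549063). Libraries are named here by region, genotype and the digit in their label, as in "dorsal striatum KO 7". The labels do not say that libraries with the same digit came from the same mouse, or that the libraries of a group came from separate mice, so p-values measure the spread between these libraries only. Levels are given in CPM, counts scaled to the library total and between libraries by the trimmed mean of M-values (TMM), and differences as the log2 fold change of motor cortex over dorsal striatum, so that a negative value means higher in the striatum.

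The motor cortex is a layered sheet in which most neurons are excitatory, release glutamate and project to other cortical areas, the striatum, the thalamus or the spinal cord. The dorsal striatum receives those axons but has almost no glutamatergic cell bodies of its own. Most of its neurons are spiny projection neurons that release GABA, with a direct pathway type that carries the dopamine receptor Drd1 and an indirect pathway type that carries Drd2, and a few interneurons, some of which release acetylcholine.

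Hdc, the targeted gene (ENSMUSG00000027360, chr2:126593667-126619299, GRCm38), was read in the direction opposite to the labels. Its level in the motor cortex was 0 CPM in WT 2, 4.45 and 5.01 in het 5 and 6, and 9.25 and 7.22 in KO 7 and 8. Dorsal striatum levels were 0.834 and 0 CPM in the WT libraries, 6.17, 3.84 and 5.26 in the het libraries, and 8.51 and 7.51 in the KO libraries. In both regions the WT libraries were lowest and the KO libraries highest, with no overlap between genotypes. Counts over the whole gene do not show which exons the reads came from, so the genotypes are called here by their labels. Between the regions Hdc did not pass the test (log2 fold change -0.06, SE 0.20, edgeR adjusted p = 0.844), and the levels of matching genotypes lay side by side.

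Several libraries stood apart before any comparison between regions. Dorsal striatum KO 7 and WT 2 had higher levels of genes listed for cortical excitatory neurons than the other striatal libraries. Over the 16 genes listed for those neurons, the summed level was 4389 in WT 2, 4644 and 4490.2 in het 5 and 6, and 4475 and 4358 in KO 7 and 8 in the motor cortex. The striatal sums were 1734 CPM in KO 7 and 1421 in WT 2, or 38.8% and 31.8% of the cortical mean, against 21.6% to 27.7% in the other 5. The most abundant gene of the list per length was Slc17a7 in the cortex and Camkv in the striatum, and no member was at 0 in every striatal library. For the excitatory and pallial lists and most named genes of these neurons, values are given with and without KO 7 and WT 2 (both were singled out with earlier results of these data known).

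Dorsal striatum KO 8 was far above the rest for genes of the choroid plexus, which secretes cerebrospinal fluid. The 6 listed choroid plexus genes that were tested summed to 2671 CPM in KO 8, against 4.45 to 67.4 in the other 6 striatal libraries and 6.19 to 28.6 in the cortex. Transthyretin (Ttr), the main secreted protein of that tissue, made up most of it, with 2498 CPM in KO 8 and 49.9 in het 6, the next highest. Dorsal striatum het 4 was highest for genes of ciliated ependymal cells, which line the ventricles, with a sum of 45.1 CPM against 5.11 to 13.1 in the other striatal libraries. It also had 2141446 reads outside annotated genes, 19.05% of its total, against 760521 to 1395856 reads in the other 27 libraries of the series. Dorsal striatum WT 1 had the lowest TMM factor, 0.791, while the other 11 factors lay between 0.926 and 1.141. This factor raises its CPM, and where WT 1 is the highest striatal library below, that order can rest on the scaling. The summed dopamine signalling genes were at 14749.9 CPM in WT 1 and 12311 in KO 7, and per library total alone at 11656 and 12827, with KO 7 the highest.

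Genes of cortical excitatory neurons were higher in the motor cortex, and genes of spiny neurons, cholinergic interneurons and dopamine signalling in the dorsal striatum. Slc17a7, a glutamate transporter, was 56.5-fold higher in the cortex (267-fold without dorsal striatum KO 7 and WT 2), and Drd2, a dopamine receptor, 289.5-fold higher in the striatum. Myelin genes were also higher in the striatum, by less. Of 14031 genes with more than 1 CPM in at least 2 of the 12 libraries, 6537 (46.6%) differed between the regions at an adjusted p below 0.05 (edgeR likelihood ratio test with genotype as covariate, Benjamini-Hochberg over all 14031). The direction was split almost evenly, with 3307 genes (23.6%) higher in motor cortex and 3230 (23.0%) higher in dorsal striatum. These shares are the background for each list and family count below. At 2-fold or more, 1165 genes (8.30%) were higher in the cortex and 975 (6.95%) in the striatum. The cortex was above the striatum in every library for 2164 genes (15.4%) and below it in every library for 1768 (12.6%). Differences of 16-fold or more were found for 51 genes in the cortical direction and 70 in the striatal direction, or 80 and 77 without dorsal striatum KO 7 and WT 2. Fitted in each genotype separately, 6381 of the 6537 genes had the same sign in WT, het and KO. Protein-coding genes were called in 47.2% of 13421 cases, lincRNA genes in 36.6% of 243 and antisense genes in 30.9% of 97. The even split depends on the scaling. With library size alone the median over all 14031 genes moved from -0.024 to 0.082, and 63.1% of the called genes were higher in the cortex, against 50.6% with TMM.

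**Figure D1:**
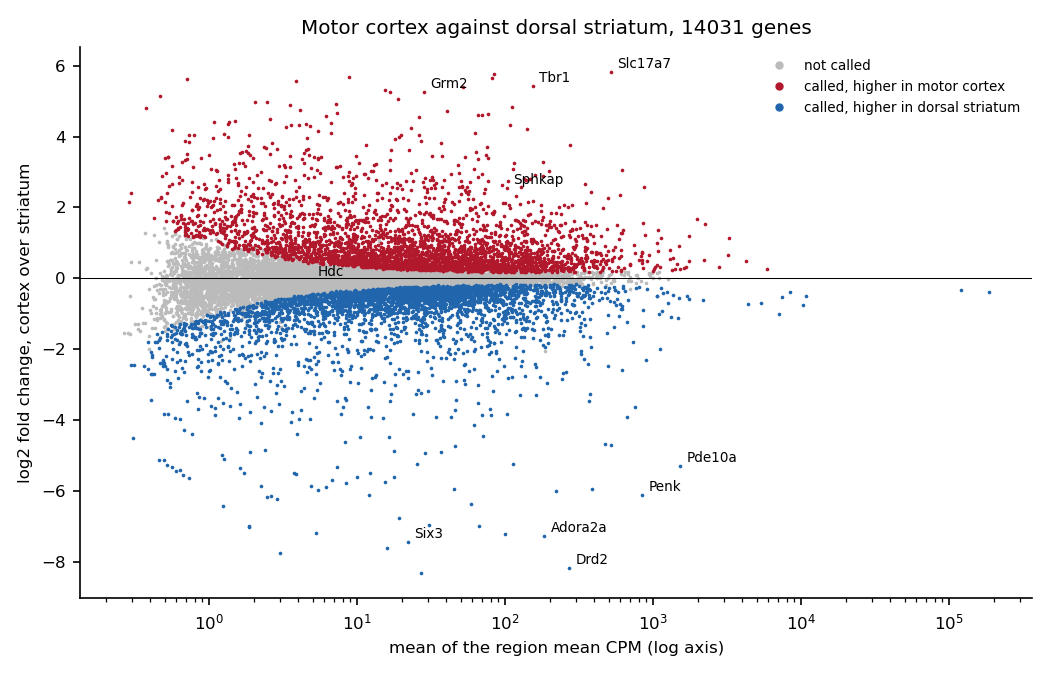
Log2 fold change of motor cortex over dorsal striatum (vertical axis) against the mean CPM of the 2 regions (horizontal log axis) for 14031 genes, with genes that passed the test in red (higher in cortex) or blue (higher in striatum). The striatal side reaches to -8.32 and the cortical side to 5.82; without dorsal striatum KO 7 and WT 2 they reach -8.32 and 8.06.

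The markers of excitatory and spiny neurons matched both tissue labels. Summed levels of the excitatory list were higher in all 5 cortical libraries than in all 7 striatal ones. For the 22 genes shared by both types of spiny neuron the sums ran the other way, 1993 to 2072 CPM in the cortex and 14736 to 20270.3 in the striatum. Indirect pathway genes summed to 135 to 175 CPM in the cortex and 2381 to 3158 in the striatum, and direct pathway genes to 94.4 to 101 and 435 to 637. None of these 4 sums overlapped between regions. In bulk tissue, fewer cells of a type and less RNA per cell cannot be told apart, and this holds for each list below.

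**Figure D2:**
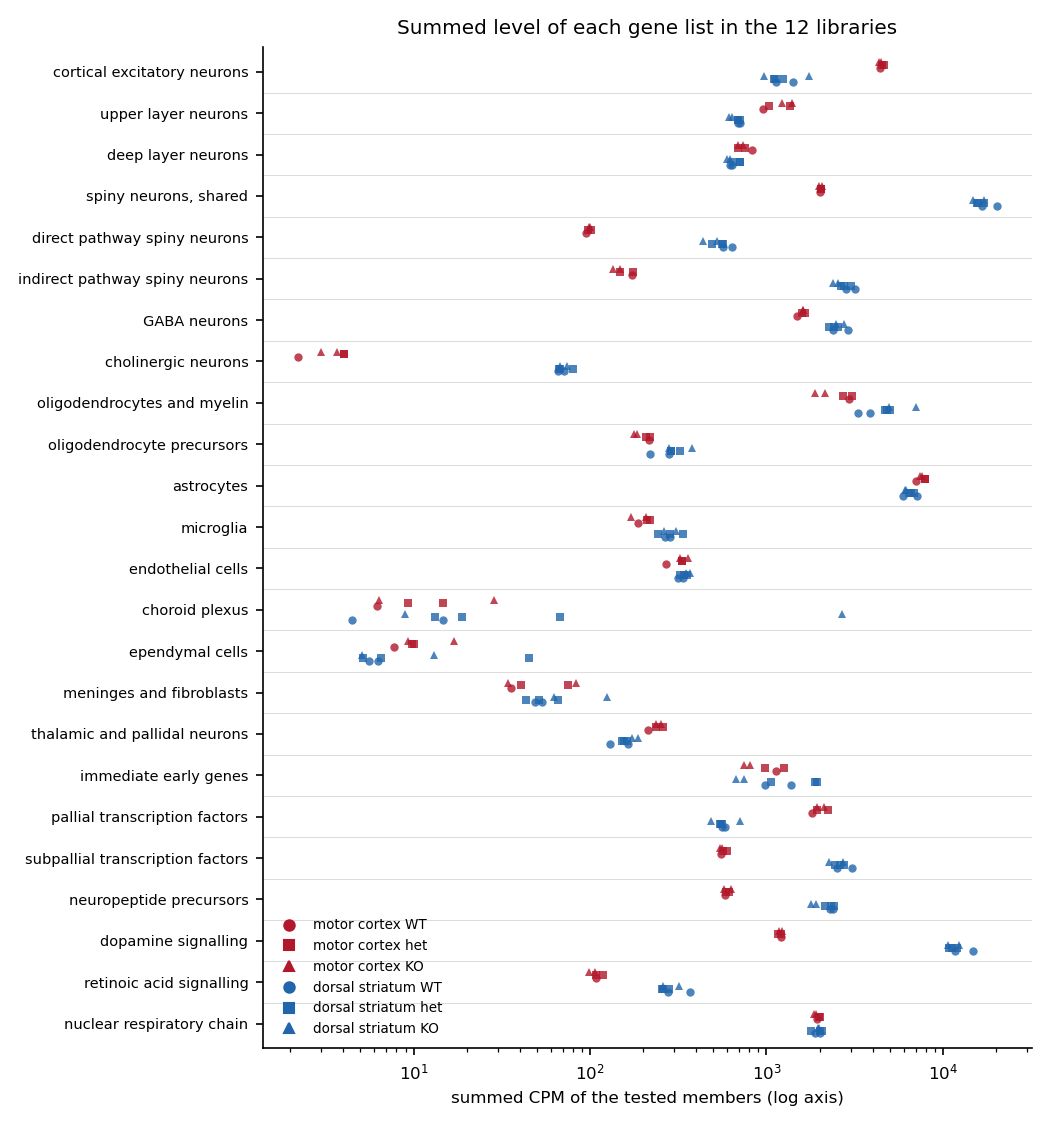
Summed CPM (log axis) of the tested members of each of 24 gene lists in the 5 motor cortex (red) and 7 dorsal striatum (blue) libraries, with marker shape for genotype. Excitatory and spiny neuron lists separate the regions, while the choroid plexus list has 1 striatal library, KO 8, at 2671 CPM.

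Genes of cortical excitatory neurons had the highest median of the 24 lists. Of 16 listed, 14 were higher in the motor cortex (23.6% of all genes were) and all 14 by 2-fold or more, with no overlap between regions in any of them (15.4% of all genes had none in that direction). The list's median log2 fold change was 4.58, against -0.024 for all genes, and 5.73 without dorsal striatum KO 7 and WT 2. The remaining 2 members were higher in the striatum: Camkv, a kinase-like protein of synaptic vesicles (-1.33), and Baiap2, an actin scaffold of dendritic spines (-1.11).

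Slc17a7 (ENSMUSG00000070570, chr7:45163949-45176142), the vesicular transporter that loads glutamate in most cortical neurons, had the largest difference on this side. Its cortical level was 1024 in WT 2, 1093 and 976 in het 5 and 6, and 955 and 989 in KO 7 and 8 (CPM). Striatal levels ran from 1.70 (KO 8) through a median of 4.67 to 165 (KO 7), with 52.2 in WT 2. Every cortical library was above every striatal one, which the naming rule requires of each gene named by size, here and below. KO 7 and WT 2 stood well above the other 5 striatal libraries. The fold was 56.5 (log2 fold change 5.82, SE 0.68, adjusted p = 9.60e-12, n = 5 and 7), and the log2 fold change was 8.06 without KO 7 and WT 2. Slc30a3, which fills the same vesicles with zinc, was at 142 in WT 2, 167 and 158 in het 5 and 6, and 203 and 154 in KO 7 and 8 in the cortex and went from 0.556 (WT 1) through a median of 1.75 to 14.9 (KO 7) in the striatum. The regions did not overlap (log2 fold change 5.76, adjusted p = 9.56e-36; 6.95 without both libraries).

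Transcription factors that give excitatory neurons their identity followed the same pattern. Tbr1, a T-box factor of glutamatergic and above all deep-layer neurons, was at 309 in WT 2, 345 and 301 in het 5 and 6, and 229 and 289.8 in KO 7 and 8 (CPM) in the cortex. In the striatum it ran from 1.13 (het 5) through a median of 1.94 to 65.3 (KO 7), and WT 2 was next at 18.2. All striatal libraries stayed below the lowest cortical value (log2 fold change 5.41, SE 0.63, adjusted p = 6.21e-12; log2 fold change 7.42 without KO 7 and WT 2). Neurod2 and Neurod6, basic helix-loop-helix factors of maturing and adult excitatory neurons, had log2 fold changes of 5.39 and 4.73, or 7.37 and 6.38 without KO 7 and WT 2. Neurod2 ranged over 90.7 to 114 CPM in the cortex and 0 to 13.6 in the striatum, Neurod6 over 61.6 to 87.9 and 0.278 to 16.8. For Emx1, a homeobox gene of the dorsal telencephalon, all 3 striatal counts were in KO 7 and the other 6 striatal libraries were at 0, against 63 counts in the cortex. The ratio was 29.4, with a 95% exact interval of 9.62 to 146 that, like each counting interval and bound below, covers counting error only.

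Over the 16 listed transcription factors of the pallium, the part of the forebrain that forms the cortex, 14 were higher in the cortex, 1 in the striatum and 1 was not called (median 3.43, or 3.62 without dorsal striatum KO 7 and WT 2). The gene in the striatal direction was Tle4, a corepressor found in corticothalamic neurons but also in spiny neurons (-1.09). Of 20 tested factors of the subpallium, which forms the striatum, 16 were higher in the striatum, each by 2-fold or more, and 2 in the cortex (median -2.60). The cortical count was 1 when dorsal striatum het 5, dorsal striatum WT 1 or motor cortex WT 2 was left out. Six3, a homeobox gene needed for indirect pathway neurons, had at most 0.747 CPM in any cortical library and 33.7 to 54.6 in the striatum (log2 fold change -7.44, SE 0.66, adjusted p = 8.95e-143). Isl1, a LIM homeobox gene of direct pathway and cholinergic neurons, ranged over 0 to 0.442 CPM in the cortex and 11.96 to 14.6 in the striatum (log2 fold change -5.69). Foxp1, Bcl11b and Meis2, regulators that spiny neurons share with some cortical cells, were higher in the striatum with log2 fold changes of -1.79, -2.68 and -2.65, from cortical levels of 298 to 349, 48.3 to 78.8 and 49.8 to 94.9 CPM. Among the Dlx homeobox genes of GABA neurons, Dlx5 and Dlx6 were higher in the striatum (-2.54 and -3.02), Dlx1 was higher in the cortex (1.60), and Dlx2 was not called (0.33).

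Other genes named for their size or their small p on the cortical side encode receptors, secreted proteins and scaffolds. Grm2, a presynaptic glutamate receptor that dampens release, was at 46.9 in WT 2, 43.6 and 55.8 in het 5 and 6, and 65.8 and 62.5 in KO 7 and 8 (CPM) in the cortex. Its striatal levels ran from 0.727 (KO 8) through a median of 1.12 to 2.55 (KO 7). No striatal library came near the cortex, KO 7 included (log2 fold change 5.26, SE 0.24, adjusted p = 6.35e-206; 5.40 without KO 7 and WT 2). Adra1b, an adrenergic receptor, ranged over 44.7 to 59.5 CPM in the cortex and 1.00 to 3.40 in the striatum (log2 fold change 4.54, adjusted p = 4.45e-193). Gfra2, the receptor that binds neurturin, ranged over 114 to 123 and 3.62 to 12.1 CPM (4.10, adjusted p = 2.90e-190). Mical2, an enzyme that oxidises actin, and Sphkap, an anchor of protein kinase A, differed less but with little spread. Mical2 had 323 to 385 CPM in the cortex and 31.4 to 56.8 in the striatum (3.02, SE 0.10), and Sphkap 156 to 187 and 26.4 to 36.8 (2.55, SE 0.09). Nrn1, an activity-regulated membrane protein that promotes neurite growth, and Scube1, a secreted protein, had log2 fold changes of 5.66 and 4.62, or 6.82 and 5.31 without KO 7 and WT 2.

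Cortical layers were less clear-cut than the excitatory class as a whole. Of 16 genes listed for upper layers, 8 were higher in the cortex and 6 in the striatum (median 0.48), against 23.6% and 23.0% of all genes. Cux2, a homeobox gene of upper layers, was at 76.3 in WT 2, 91.3 and 151 in het 5 and 6, and 168 and 132 in KO 7 and 8 (CPM) in the cortex and went from 8.90 (WT 1) through a median of 14.8 to 22.98 (KO 7) in the striatum. WT 2 and het 5 were the lowest cortical libraries, and the regions did not overlap (log2 fold change 2.94, SE 0.16, adjusted p = 1.56e-71). Rasgrf2 and Unc5d, further upper-layer genes, had log2 fold changes of 2.63 and 2.56, and Rorb, a receptor of the input layer, 1.33. Pou3f1 and Plxnd1, which spiny neurons also express, went the other way (-1.74 and -0.92). The upper-layer median fell to 0.28 when motor cortex het 6 was left out, and the count higher in the striatum fell to 3 when motor cortex WT 2 was left out.

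Deep-layer genes numbered 18, with 11 higher in the cortex and 4 in the striatum (median 0.94). The striatal share, 22.2%, is near the 23.0% of all genes, and the cortical share, 61.1%, is above 23.6%. Fezf2, which specifies neurons that project to brainstem and spinal cord, was at 41.8 in WT 2, 31.8 and 27.4 in het 5 and 6, and 34.7 and 34.1 in KO 7 and 8 (CPM) in the cortex and from 0.727 (KO 8) through a median of 2.00 to 4.26 (KO 7) in the striatum. The regions were far apart and KO 7 was again the highest striatal library (log2 fold change 3.92, SE 0.21, adjusted p = 1.19e-112). Syt6, a synaptotagmin, and Crym, a thyroid hormone binding protein, are used as deep-layer markers but were higher in the striatum, with log2 fold changes of -2.76 and -2.54. Crym varied among striatal libraries from 23.2 (KO 7) through a median of 54.4 to 96.9 (het 4).

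Spiny neuron genes moved as a block. All 22 shared by the direct and indirect types were higher in the striatum (23.0% of all genes were), 21 of them by 2-fold or more, and none overlapped between regions (12.6% of all genes lay wholly higher in the striatum). Their median log2 fold change was -3.36. Ppp1r1b, a dopamine-regulated inhibitor of protein phosphatase, was at 35.6 in WT 2, 38.7 and 33.4 in het 5 and 6, and 34.5 and 31.4 in KO 7 and 8 (CPM) in the cortex and ran from 689 (het 4) through a median of 929 to 1154 (WT 1) in the striatum. Every striatal library was far above the cortex (log2 fold change -4.68, SE 0.11, adjusted p = 1.62e-297). Per length, Ppp1r1b was the most abundant of the list in the striatum, at 312 CPM per kb, while Arpp19 led in the cortex at 46.3. Rgs9, which speeds the shut-off of G proteins downstream of dopamine receptors, was at 5.97 in WT 2, 6.90 and 5.48 in het 5 and 6, and 6.78 and 8.46 in KO 7 and 8 in the cortex and from 361 (het 4) through a median of 436 to 559 (WT 1) in the striatum. The cortical values lay close together (log2 fold change -5.99, SE 0.15). At the other end, Arpp19, a phosphatase inhibitor found in most cells, differed by -0.61 (adjusted p = 6.67e-10).

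Indirect pathway genes had the lowest median of the 24 lists. Drd2 (ENSMUSG00000032259, chr9:49340627-49408177), the inhibitory dopamine receptor of these neurons, was at 2.43 in WT 2, 1.56 and 1.19 in het 5 and 6, and 1.64 and 2.24 in KO 7 and 8 (CPM) in the cortex. Its striatal levels ran from 463 (KO 8) through a median of 536 to 682 (WT 1). The fold was 289.5 (log2 fold change -8.18, SE 0.25, n = 5 and 7), with each region's libraries close together. Adora2a, the adenosine receptor that opposes Drd2, was at 1.99 in WT 2, 2.89 and 3.34 in het 5 and 6, and 1.23 and 2.24 in KO 7 and 8 in the cortex and from 285 (het 4) through a median of 367 to 451 (WT 1) in the striatum. Penk, the precursor of enkephalin, was at 20.1 in WT 2, 30.9 and 18.6 in het 5 and 6, and 30.6 and 17.2 in KO 7 and 8 in the cortex and from 1385 (KO 8) through a median of 1708 to 1898 (het 5) in the striatum. The KO libraries had the lowest striatal Penk, but in the cortex KO 7 was among the highest. The log2 fold changes were -7.27 (SE 0.22) for Adora2a and -6.11 (SE 0.13) for Penk, and per length Penk led its list in both regions, at 14.4 CPM per kb in the cortex and 1018 in the striatum. Gpr6, an orphan receptor of the same neurons, ranged over 0 to 0.664 and 46.3 to 73.5 CPM (-6.95, adjusted p = 5.65e-211). Of 6 tested members 5 were called, all higher in the striatum (median -6.53), and the kainate receptor Grik3 was not (0.10, adjusted p = 0.438).

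Direct pathway genes were called in 8 of 9 cases, all higher in the striatum, with a smaller median of -2.54. Drd1, the stimulatory dopamine receptor, was at 7.52 in WT 2, 4.45 and 6.68 in het 5 and 6, and 4.73 and 4.98 in KO 7 and 8 (CPM) in the cortex and from 169.6 (KO 8) through a median of 209 to 271 (WT 1) in the striatum. The regions did not overlap (log2 fold change -5.23, SE 0.16). Tac1, the precursor of substance P, ranged over 1.03 to 2.49 and 43.1 to 68.1 CPM (-4.93, adjusted p = 1.25e-177). Pdyn, the precursor of dynorphin, was nearer between regions and more uneven within the striatum, from 28.1 (KO 7) through a median of 34.8 to 87.3 (het 4), with 12.3 to 16.4 in the cortex (log2 fold change -1.60, SE 0.22, adjusted p = 2.20e-11). Eya1 was the member not called (-0.27, adjusted p = 0.365).

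Further genes in none of these lists completed the set named on the striatal side. Serpina9, a serine protease inhibitor, had 3 counts over all cortical libraries and 1671 in the striatum, a ratio of 398 (95% exact interval 136 to 1929.7). Syndig1l, a transmembrane protein of striatal neurons, ranged over 0.411 to 1.91 CPM in the cortex and 167 to 259.8 in the striatum (-7.23, SE 0.29). Sh3rf2, a ubiquitin ligase, ranged over 0.498 to 1.44 and 115 to 145 CPM (-6.99, SE 0.32). Cd4, best known as the coreceptor of helper T cells, ranged over 0.715 to 1.99 and 100.1 to 139 CPM (-6.38, SE 0.28). None of these genes overlapped between regions, which was a condition of naming them.

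**Figure D3:**
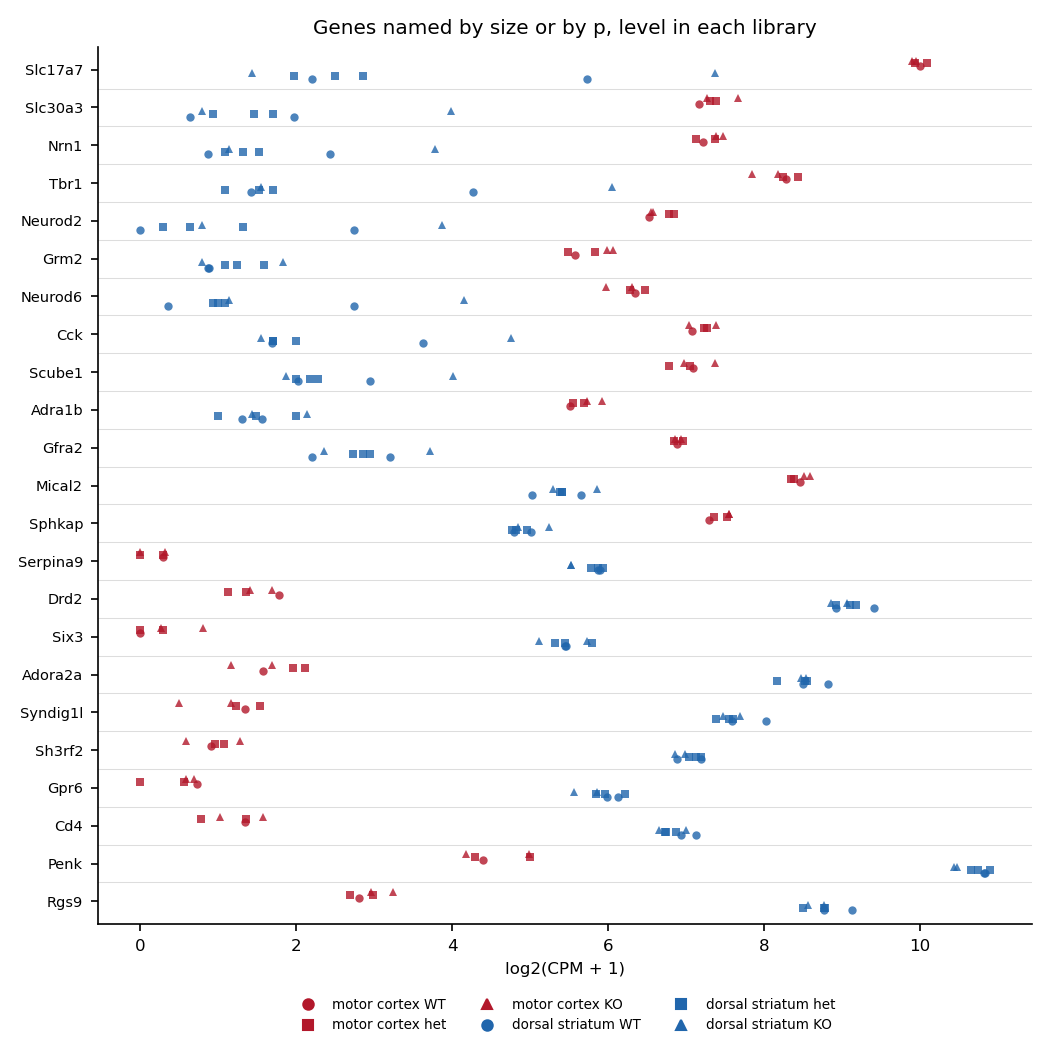
Level, as log2 of CPM plus 1, of genes named by size or by p in each motor cortex (red) and dorsal striatum (blue) library, with marker shape for genotype. Cortical excitatory genes have 2 striatal points, KO 7 and WT 2, to the right of the others, while striatal genes have tight groups on both sides.

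Promoters of genes that moved together are shown to let their letters be compared. The RefSeq table for GRCm38.p6 held 15 of the 24 genes named by size or p. Each sequence covers 300 bases, 5′ to 3′ on the gene's strand. Short motifs were searched on both strands and stand in capitals: CAGATG, an E-box of the kind NeuroD proteins bind; CAGCTG, another E-box; and TGACGTCA and TGCGTCA, a cyclic AMP response element and a variant of it. The promoters shown are those that held a searched motif, so they do not stand for the other named genes. On the cortical side these are Neurod2 (chr11:98329596-98329895, minus strand) and Cck (chr9:121495645-121495944, minus strand). On the striatal side they are Gpr6 (chr10:41072241-41072540, minus strand) and Rgs9 (chr11:109298132-109298431, minus strand).
Neurod2: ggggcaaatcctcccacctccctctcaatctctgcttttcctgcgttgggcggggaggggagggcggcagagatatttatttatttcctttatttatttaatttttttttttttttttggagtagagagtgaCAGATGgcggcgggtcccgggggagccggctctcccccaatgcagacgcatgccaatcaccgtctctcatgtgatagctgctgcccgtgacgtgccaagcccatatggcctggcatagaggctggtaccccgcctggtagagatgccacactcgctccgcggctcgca
Cck: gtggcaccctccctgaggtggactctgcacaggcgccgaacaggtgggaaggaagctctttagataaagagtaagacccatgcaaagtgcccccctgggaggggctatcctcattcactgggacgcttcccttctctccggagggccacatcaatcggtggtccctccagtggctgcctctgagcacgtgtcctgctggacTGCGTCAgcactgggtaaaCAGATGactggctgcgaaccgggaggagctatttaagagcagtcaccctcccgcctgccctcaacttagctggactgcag
Gpr6: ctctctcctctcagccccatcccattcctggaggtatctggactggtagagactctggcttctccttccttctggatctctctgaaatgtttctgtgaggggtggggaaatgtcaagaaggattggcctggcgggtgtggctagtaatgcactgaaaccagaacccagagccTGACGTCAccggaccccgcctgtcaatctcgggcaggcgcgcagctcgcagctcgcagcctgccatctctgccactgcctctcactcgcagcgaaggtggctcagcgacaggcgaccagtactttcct
Rgs9: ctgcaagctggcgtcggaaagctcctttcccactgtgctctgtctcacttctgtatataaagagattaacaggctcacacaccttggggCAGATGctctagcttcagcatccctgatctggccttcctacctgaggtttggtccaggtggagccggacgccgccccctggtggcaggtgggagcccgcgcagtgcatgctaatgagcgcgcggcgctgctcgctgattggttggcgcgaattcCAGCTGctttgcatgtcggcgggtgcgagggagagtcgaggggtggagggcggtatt

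Neurod2 and Cck held CAGATG, and Cck also TGCGTCA. Gpr6 held TGACGTCA, and Rgs9 held CAGATG and CAGCTG. Of 27025 promoters in the table, 17.2% held CAGATG, 16.1% CAGCTG, 2.19% TGCGTCA and 1.88% TGACGTCA. Among promoters of genes 2-fold or more higher in the cortex (827), CAGATG was in 14%, CAGCTG in 18.5%, TGCGTCA in 1.93% and TGACGTCA in 2.66%; among those higher in the striatum (697), the shares were 13.3%, 21.8%, 1.87% and 0.861%. All tested genes with a matched promoter (10777) had 11.3%, 15.4%, 3.75% and 3.26%. The 11 other matched genes held none of the 4 motifs in this window.

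Dopamine signalling genes, which overlap the spiny neuron lists, were higher in the striatum in 17 of 21 tested cases and in the cortex in 2 (median -3.63). The set runs from receptors to their effectors. Drd3, a dopamine receptor of limbic striatum, was at 0 in the cortex and had 79 counts in the striatum, at least 18.8 times the cortical level if the cortex is set to a floor of 3 counts over its libraries. Drd5 was not called (-0.26, adjusted p = 0.466). At the level of G proteins, Gnal, the stimulatory alpha subunit that couples Drd1 and Adora2a in the striatum, was at 179.6 in WT 2, 196 and 159 in het 5 and 6, and 179 and 161 in KO 7 and 8 (CPM) in the cortex and from 892 (KO 8) through a median of 1059 to 1265 (WT 1) in the striatum. Its relative Gnas, the general stimulatory subunit, ran the other way, with 25.7 to 34.7 CPM in the cortex and 9.72 to 20.05 in the striatum. Both were free of overlap (log2 fold changes -2.58 and 1.05).

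The enzymes that make and break down cyclic AMP had members called on both sides, where all genes have 23.6% higher in the cortex and 23.0% in the striatum. Among 10 adenylyl cyclases, 5 were higher in the cortex and 2, near the share of all genes, in the striatum (median 0.48). Adcy5, the main striatal cyclase, ranged over 103 to 121 CPM in the cortex and 1240.3 to 1594 in the striatum (-3.63, SE 0.08). Adcy1, a calcium-stimulated cyclase, ranged over 968 to 1056 and 128 to 265 CPM (2.37, adjusted p = 7.45e-79). Of 18 phosphodiesterases, 10 (55.6%) were higher in the striatum and 6 (33.3%) in the cortex (median -0.40). Pde10a, the most abundant phosphodiesterase of the striatum per length, was at 80.3 in WT 2, 72.6 and 62.5 in het 5 and 6, and 93.7 and 68.5 in KO 7 and 8 (CPM) in the cortex and from 2475 (het 4) through a median of 2781 to 3798 (WT 1) in the striatum (-5.29, SE 0.10). Pde1b was also higher in the striatum (-3.90), whereas its relative Pde1a was higher in the cortex (3.25). RGS proteins, which end G protein signals, were higher in the striatum in 8 of 17 cases (47.1%) and in the cortex in 3 (17.6%, below the share of all genes), or in 5 without dorsal striatum het 4. G protein subunits were called 10 and 9 times in the cortical and striatal directions among 26 (38.5% and 34.6%), and their median of -0.10 turned to 0.01 with library size alone. Gng7, the gamma subunit that pairs with Gnal, had the lowest log2 fold change of that family (-4.71), and Gng2 the highest (1.99).

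Among 12 serotonin receptors, 6 were higher in the cortex and 5 in the striatum (all genes, 23.6% and 23.0%). Htr1a (2.93), Htr7 (1.75) and Htr2a (1.71) had the largest cortical differences, and Htr1d (-5.75), Htr1b (-3.18) and Htr2c (-2.69) the largest striatal ones. Of 4 muscarinic acetylcholine receptors tested, Chrm1, Chrm2 and Chrm3 were higher in the cortex (0.28, 0.91 and 2.62) and Chrm4, which direct pathway neurons carry, in the striatum (-1.83). Among 5 opioid and cannabinoid receptors, Oprk1, Oprm1, Cnr1 and Oprd1 were higher in the striatum (-2.37, -2.14, -1.67 and -0.26) and Oprl1 in the cortex (1.07). Cnr1, the brain cannabinoid receptor, was uneven across the striatum, from 323 (het 4) through a median of 467 to 1004 (WT 1), with KO 7 at 866, while the cortex ranged over 157 to 197 CPM.

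Glutamate receptors that open ion channels were called equally often in both directions, 7 and 7 of 18 (median 0.01, or -0.03 without dorsal striatum KO 8 and -0.02 without motor cortex KO 7). Grik1 (1.80) and Grin2a (1.43) were higher in the cortex, Grik2 (-1.64) and Gria1 (-0.76) in the striatum, and the shared NMDA receptor subunit Grin1 was not called (0.04, adjusted p = 0.754). With library size alone, the count higher in the striatum was 5. Of 7 metabotropic receptors tested, 2 were higher in the cortex and 4 in the striatum, with Grm2 and Grm8 on the cortical side (5.26 and 1.71) and Grm4 and Grm5 among those on the striatal side (-2.25 and -1.59). GABA-A receptor subunits split 5 and 5 of 13. Gabra3 and Gabra5 were among those higher in the cortex (2.37 and 1.18), and Gabra2, Gabra4 and Gabrd in the striatum (-0.62, -0.96 and -0.99).

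Potassium channels leaned towards the cortex, with 41 of 75 higher there and 18 higher in the striatum (median 0.64). Over all genes tested 23.6% were higher in the cortex and 23.0% in the striatum, and the striatal count is near that share. Kcnj3 and Kcnj6, subunits of channels opened by G proteins, were higher in the cortex (3.41 and 3.62), as were Kcnc2 (2.76) of fast-spiking neurons and the background channel Kcnk4 (3.83). Kcnj2 and Kcnj4, inward rectifiers that hold spiny neurons at a negative resting potential, were higher in the striatum (-2.12 and -0.92), along with Kcnab1 (-2.78) and the A-type channel Kcna4 (-2.46). Of 11 sodium channel genes, 4 were higher in the cortex and 5 in the striatum. The beta subunit Scn4b, which gives striatal neurons a resurgent current, ranged over 56.03 to 86.8 CPM in the cortex and 618 to 865 in the striatum (-3.25, adjusted p = 6.40e-146). Calcium channel genes split 9 and 11 of 22, or 9 in the striatal direction with library size alone. Cacna1g, a low-threshold channel, was higher in the cortex (2.94), and Cacng4 and Cacna2d3, auxiliary subunits, in the striatum (-3.17 and -1.74).

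Adhesion and guidance families had mostly small medians. Cadherins were higher in the cortex in 10 of 18 cases and in the striatum in 4 (median 0.60), with Cdh12 (2.28) and Cdh13 (-1.57) at the ends of those called. Ephrins and Eph receptors were called 7 and 6 times in the 2 directions among 20 (median 0.08, or -0.01 without dorsal striatum het 6). Ephb3 and Ephb2 were higher in the cortex (2.22 and 2.21), and Efnb3, an ephrin of the class they bind, in the striatum (-1.98). Semaphorins, plexins and neuropilins were called 13 and 7 times among 31 (median 0.21), the second count near the 23.0% of all genes that were higher in the striatum, with Plxna1 (2.24) and Sema3f (-1.54) at the ends.

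**Figure D4:**
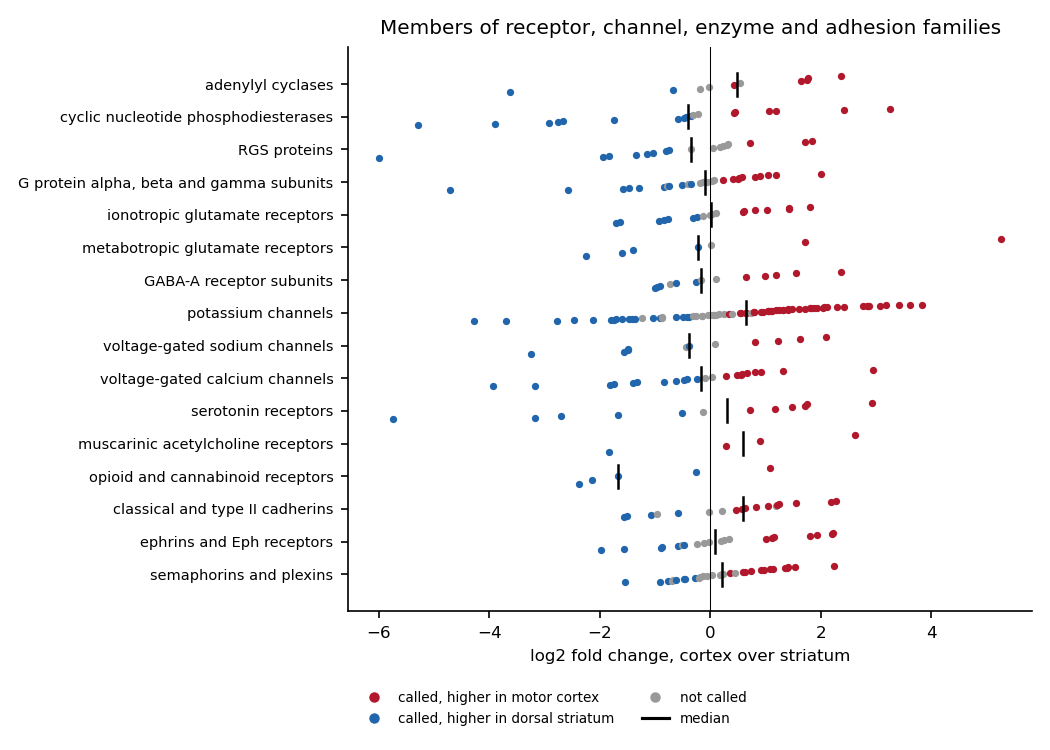
Log2 fold change of motor cortex over dorsal striatum for each tested member of 16 gene families, coloured by call, with the family median as a black line. Most families hold called members on both sides of 0, and the median of G protein subunits, -0.10, turned to 0.01 with library size alone.

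Interneurons were compared through 21 genes of GABA neurons, of which 11 (52.4%) were higher in the cortex and 8 (38.1%) in the striatum, against 23.6% and 23.0% of all genes (median 0.41). The enzymes and transporter that all GABA neurons use, spiny neurons included, were higher in the striatum: Gad1 (-0.89), Gad2 (-1.63) and Slc32a1 (-1.79). Class markers of interneurons went both ways, with Kit (-0.77), Th (-1.19) and Cnr1 (-1.67) also higher in the striatum. Pvalb, a calcium buffer of fast-spiking cells, was at 61.7 in WT 2, 63.00 and 67.95 in het 5 and 6, and 54.7 and 65.2 in KO 7 and 8 (CPM) in the cortex and from 6.36 (het 4) through a median of 9.65 to 33.2 (KO 8) in the striatum. Its striatal values were uneven, with KO 8 and het 6 above the other libraries, and did not reach the cortical range (log2 fold change 2.14, SE 0.27, adjusted p = 3.08e-14). Vip, the peptide of another class, ranged over 12.4 to 17.9 and 0 to 1.70 CPM (4.65), while Sst and Npy, peptides of interneurons found in both regions, differed little (0.41 and 0.46). Cck, a peptide of cortical excitatory cells and interneurons, was at 134 in WT 2, 154 and 149 in het 5 and 6, and 167 and 130.5 in KO 7 and 8 in the cortex and from 1.94 (KO 8) through a median of 2.26 to 25.96 (KO 7) in the striatum. The striatal maximum was again in KO 7 (log2 fold change 4.64, SE 0.43, adjusted p = 6.72e-22; log2 fold change 5.95 without KO 7 and WT 2).

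Cholinergic interneuron genes were nearly absent from the cortex. Chat, the enzyme that makes acetylcholine, was at 0 in WT 2, 0.223 and 0.477 in het 5 and 6, and 0.616 and 0 in KO 7 and 8 (CPM) in the cortex and from 14.03 (het 6) through a median of 16.5 to 21.03 (het 5) in the striatum. The striatal libraries lay close together, and 2 cortical ones were at 0 (log2 fold change -5.79, SE 0.60, adjusted p = 1.51e-78). Slc5a7, which takes up choline, ranged over 0.411 to 2.45 and 29.8 to 39.8 CPM (-4.88). Of 6 tested members 5 were higher in the striatum, with a median of -5.33, or -4.82 with members at 0 in every cortical library set to their bound.

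Of 20 neuropeptide precursors, 11 were higher in the cortex and 6 in the striatum (median 0.55). Bdnf, a growth factor that cortical axons supply to the striatum, ranged over 6.23 to 12.9 CPM in the cortex and 0 to 2.77 in the striatum (3.41, adjusted p = 2.84e-30). Adcyap1, the precursor of a peptide that stimulates adenylyl cyclase, ranged over 4.87 to 8.22 and 0 to 0.556 (4.90). Retinoic acid genes were higher in the striatum in 8 of 16 cases and in the cortex in 1 (median -0.26), or 2 without dorsal striatum het 6 or KO 8. The receptors Rarb and Rxrg were higher in the striatum (-3.91 and -5.95), while Rara was higher in the cortex (1.65). The binding protein Crabp1 was at 0 in every cortical library, at least 44.7-fold higher in the striatum.

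Myelin and oligodendrocyte genes were higher in the striatum in 27 of 30 cases and in the cortex in 0 (1 without dorsal striatum KO 8), by a small step: the median was -0.93, 8 genes reached 2-fold and 16 had no overlap (12.6% of all genes). With library size alone the count was 24. Summed over the list, the cortex had 2939.5 in WT 2, 3034 and 2722 in het 5 and 6, and 1890.2 and 2140.0 in KO 7 and 8 (CPM). Sums in the striatum were 3846 and 3317 in WT, 5002, 4718 and 4823 in het, and 4976 and 7056 in KO. The regions did not overlap, and the distance between them was smallest in WT and largest in KO libraries. The share of reads outside annotated genes also differed between the striatal libraries, at 10.84% and 11.78% in WT 1 and 2, 19.05%, 11.25% and 11.24% in het 4, 5 and 6, and 14.85% and 16.09% in KO 7 and 8. The 3 libraries with the highest shares had the 3 highest myelin sums. In the cortex it was 12.63% in WT 2, 10.72% and 13.42% in het 5 and 6, and 12.26% and 13.9% in KO 7 and 8. Whether this share bears on the myelin values was not tested. Mbp, which holds the membranes of compact myelin together, was at 902 in WT 2, 966 and 902 in het 5 and 6, and 591 and 646 in KO 7 and 8 (CPM) in the cortex and from 1062 (WT 2) through a median of 1544 to 1955 (KO 8) in the striatum (log2 fold change -0.91, SE 0.13, adjusted p = 1.75e-10). Of 7 oligodendrocyte precursor genes, 4 were higher in the striatum and 1 in the cortex (median -0.28); the cortical count was 0 without any of dorsal striatum het 5, KO 7 and WT 2 or motor cortex het 5 and WT 2.

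Other glia and vessels differed little. Microglial genes were higher in the striatum in 10 of 12 cases, none by 2-fold (median -0.49), and in 7 with library size alone; summed levels were 171 to 218 CPM in the cortex and 243 to 336 in the striatum. Cx3cr1, a fractalkine receptor, had a log2 fold change of -0.55 (adjusted p = 4.02e-06). Astrocyte genes were higher in the cortex in 7 of 18 cases and in the striatum in 2 (median 0.11), or 1 without dorsal striatum KO 8. Aldh1l1, a folate enzyme used to mark astrocytes, was higher in the cortex (0.56), and Crym, which striatal astrocytes express, in the striatum (-2.54). Of 12 endothelial genes 0 were called by the edgeR likelihood ratio test, the edgeR quasi-likelihood test or DESeq2, and 2 had an unadjusted p below 0.05 by the first (median -0.06, or 0.04 with library size alone). Their sums were 270.1 to 361 CPM in the cortex and 317 to 371 in the striatum. The striatal count was 1 when any of dorsal striatum het 6, KO 7, KO 8 and WT 1 or motor cortex het 5 and KO 7 was left out, and the median was 0.03 without motor cortex WT 2.

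For most tissues at the edge of the dissections, counts or medians changed with the libraries left out. Of 6 choroid plexus genes, 3 were higher in the striatum (median -2.28, or -0.55 without dorsal striatum KO 8, again with 3 called, and with 5 without dorsal striatum KO 7 or motor cortex WT 2). Ependymal genes gave 1 in the cortical and 2 in the striatal direction of 7 (median -0.50), and 1 and 0 with a median of 0.68 without dorsal striatum het 4. Leaving out dorsal striatum KO 8 instead gave 0 and 1, motor cortex het 5 gave 0 in the striatal direction (median 0.02) and motor cortex het 6 gave 1 (median 0.07). The cortical count was 0 without any of the other 8 libraries too. Genes of meninges and fibroblasts were called 2 and 2 times of 12, and 2 and 0 times without dorsal striatum KO 8. Without motor cortex het 5 they were called 1 and 4 times, without motor cortex KO 7 1 and 1 times, and the striatal count was 1 without dorsal striatum het 4, dorsal striatum WT 2 or motor cortex het 6. Their median was -0.12, and 0.02 without motor cortex KO 8. Thalamic and pallidal neuron genes, markers of neighbouring nuclei, were called 3 and 3 times of 8 (median -0.25). Slc17a6, the glutamate transporter of thalamic neurons, ranged over 11.1 to 18.8 CPM in the cortex and 0 to 3.62 in the striatum (3.17). Nkx2-1, a pallidal and interneuron factor, had 1 count in the cortex and 135 in the striatum, a ratio of 96.4 (95% exact interval 17.00 to 3834). The share of these cells in the neuronal differences was not tested.

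Immediate early genes, which neurons switch on with activity, were called 4 times in the cortical and 5 times in the striatal direction among 15 (median -0.25), with 3 in the striatal direction without motor cortex het 5. The shares were 26.7% and 33.3%, against 23.6% and 23.0% of all genes. By genotype the median was 0.22 in WT, -0.96 in het and 0.28 in KO, so it was negative in het alone. Arc, a synaptic activity gene, was at 225 in WT 2, 209 and 172 in het 5 and 6, and 65.5 and 80.9 in KO 7 and 8 (CPM) in the cortex and from 39.97 (KO 8) through a median of 109.8 to 163 (het 5) in the striatum. The KO libraries were lowest in both regions, and the regions overlapped (log2 fold change 0.75, SE 0.16, adjusted p = 1.03e-05). Egr2, a zinc finger factor, was higher in the striatum (-2.56), where it ran from 3.63 (KO 8) through a median of 12.03 to 38.3 (het 4). Nuclear respiratory chain genes were mostly level, with 3 of 18 higher in the cortex (1 without motor cortex het 6) and 1, Ndufa1, in the striatum (-0.59; list median 0.06).

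Whether the step between regions depends on genotype was asked with a region by genotype term. It was called for 32 of 14031 genes (0.228%) by the edgeR likelihood ratio test, while the edgeR quasi-likelihood test called 0. At an unadjusted p below 0.05 the counts were 764 and 603. Of the 32, 13 were among the 30 myelin genes. In 31 the cortex-over-striatum difference was lower in KO than in WT, and the exception was Kcnj2. This is a count of signs, and each sign rests on the same WT cortex library. For some of the 31, Exosc9 and Car10 among them, het differed more from WT than KO did. The motor cortex has only 1 WT library, and 11 genes were called when it was left out, which leaves the comparison of het with KO. It was 10 without motor cortex KO 7, 19 without motor cortex het 5, 53 without dorsal striatum WT 2, 60 without dorsal striatum het 4, 68 without dorsal striatum KO 7 and 74 without dorsal striatum KO 8. With the library digit as a block it was 101, all 32 among them.

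Mobp, a protein of compact myelin, had the smallest p of that test. Its cortical level was 103 in WT 2, 104 and 86.6 in het 5 and 6, and 62.5 and 62.5 in KO 7 and 8 (CPM). Striatal levels were 143 and 124 in WT, 224, 203 and 191 in het, and 207 and 244 in KO. KO libraries were lowest in the cortex and, with het libraries, highest in the striatum. The log2 difference between regions was -0.38 in WT, -1.11 in het and -1.85 in KO (adjusted p = 5.20e-05, or 0.0970 with the quasi-likelihood test and 0.163 without motor cortex WT 2). Over the alternatives run for this test its adjusted p ran from 1.86e-08 to 0.163. Cnp, Cldn11 and Mog, an enzyme, a tight junction protein and a surface protein of myelin, gave the same order. Their differences were -0.23, -0.93 and -1.45 for Cnp (adjusted p = 0.000307), -0.42, -1.01 and -1.77 for Cldn11 (adjusted p = 0.000489), and 0.05, -0.76 and -1.54 for Mog (adjusted p = 0.000496). Without motor cortex WT 2 the adjusted p were 0.443, 0.162 and 0.334, and over all alternatives they ran from 1.13e-05, 8.44e-07 and 8.44e-07 to those values.

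Across the 30 myelin genes the median difference between regions was -0.28 in WT, -0.72 in het and -1.50 in KO, against -0.01, -0.02 and -0.02 for all genes. Other lists moved between genotypes too. Choroid plexus genes had medians of -0.19, -1.29 and -4.19, where KO includes dorsal striatum KO 8, the striatal library highest for these genes and also for the myelin sum (7056 CPM). Deep-layer genes had 1.47, 0.64 and 0.59, and upper-layer genes 0.33, 0.51 and 0.90. Others had no order from WT to KO: immediate early genes had 0.22, -0.96 and 0.28, ependymal genes 0.51, -1.30 and 0.59, where het includes dorsal striatum het 4, and genes of meninges and fibroblasts -0.61, 0.25 and -0.26. A difference in dissection or in RNA quality between genotypes was not tested and cannot be told apart here from an effect of Hdc. Shared spiny neuron genes differed less, with medians of -3.52, -3.29 and -3.41, as did dopamine signalling genes, with -3.62, -3.63 and -3.63. For excitatory genes they were 4.64, 5.51 and 3.09, lower in the genotypes that include dorsal striatum WT 2 and KO 7.

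Ccn2 and Cplx3, markers of the deepest cortical neurons, were called for another pattern. Ccn2 was at 14.4 in WT 2, 11.1 and 9.54 in het 5 and 6, and 4.11 and 1.99 in KO 7 and 8 (CPM) in the cortex and from 0.251 (het 6) through a median of 1.21 to 9.36 (KO 7) in the striatum. Cplx3, a regulator of vesicle release, was at 25.9 in WT 2, 17.6 and 22.9 in het 5 and 6, and 8.84 and 6.72 in KO 7 and 8 in the cortex and from 0.251 (het 6) through a median of 1.45 to 14.04 (KO 7) in the striatum. For both genes the KO libraries were lowest in the cortex, and dorsal striatum KO 7, the striatal library with the highest sum of excitatory genes, was highest in the striatum. The region difference of Ccn2 was 2.73, 3.93 and -0.79 in WT, het and KO (adjusted p = 0.000307), and the adjusted p was 0.551 without dorsal striatum KO 7. Over the same alternatives it ran from 1.63e-18 to 0.551.

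**Figure D5:**
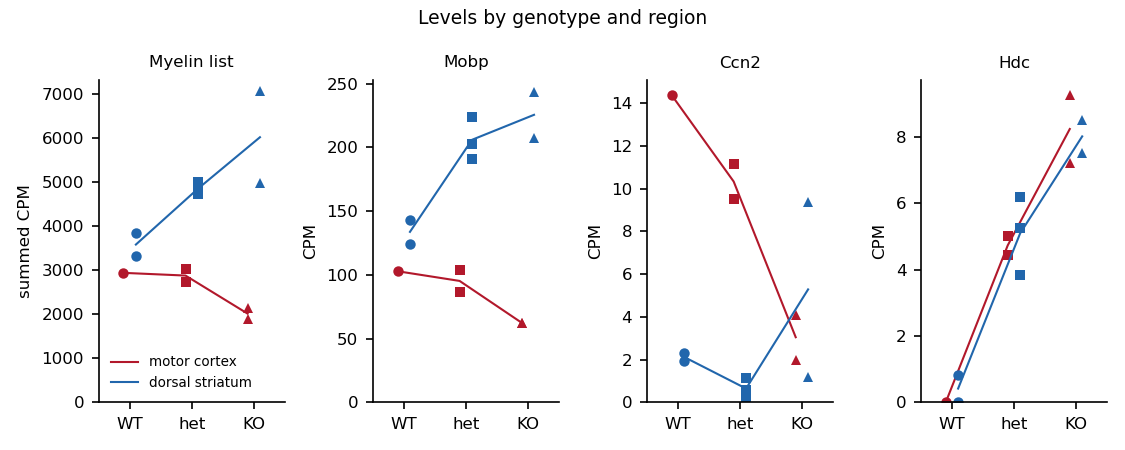
Summed CPM of the myelin list and CPM of Mobp, Ccn2 and Hdc by genotype in motor cortex (red) and dorsal striatum (blue), with points for libraries and lines through group means. The regions draw apart from WT to KO for the myelin list and Mobp, and the high striatal KO point of Ccn2 is KO 7, at 9.36 CPM.

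The 16 libraries of ventral striatum and hypothalamus, not used in the comparison, place these genes in the wider series as a description without a test, with all 28 scaled together. Of the 1165 genes 2-fold or more higher in motor cortex than dorsal striatum, 76.6% had a ventral striatum mean nearer the dorsal striatum and 23.4% nearer the cortex. In the hypothalamus 44.7% were nearer the dorsal striatum. Of the 975 genes higher in dorsal striatum, 70.4% were nearer the dorsal striatum in ventral striatum, and 37.6% in hypothalamus. Drd2 had 112 to 233 CPM in ventral striatum and 23.5 to 45.9 in hypothalamus, between the levels of cortex and dorsal striatum. Adora2a had 86.4 to 206 in ventral striatum but 0.372 to 1.95 in hypothalamus, as low as in cortex. Penk had 602 to 1386 and 41.4 to 66.9 CPM. On the cortical side, Slc17a7 had 2.13 to 8.40 CPM in ventral striatum and 10.3 to 199 in hypothalamus, and Grm2 2.02 to 5.52 and 22.1 to 36.3. Cck stayed at 1.44 to 5.08 CPM in ventral striatum, below every cortical library.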

How the data were processed

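The deposited values are read counts per Ensembl gene, 1 library per file, made by the authors from single-end reads of cDNA from bulk dissected brain regions. The submitters' processing notes name Trimmomatic 0.32 for trimming, Bowtie2 2.2.3 for removing ribosomal RNA reads, STAR 2.3.1z8 for alignment to GRCm38, SAMtools 0.1.19 and HTSeq 0.6.1p1 in union mode. A strand setting is not stated. Reads in no annotated gene made up 10.72% to 13.9% of the reads in motor cortex libraries and 10.84% to 19.05% in dorsal striatum libraries. Counts on genes ran from 3732822 to 5150280 per library, so that 1 count is about 0.2 CPM.

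Counts of the 5 motor cortex and 7 dorsal striatum libraries were analysed in R 4.3.3 with edgeR 4.0.16. The 14031 genes with over 1 CPM in 2 or more of these 12 libraries were scaled by TMM and fitted with region and genotype (glmFit). Region was tested with glmLRT, and p-values were adjusted by Benjamini-Hochberg over all of them; a gene was called at an adjusted p below 0.05. A second fit with 6 groups of region and genotype tested whether the region difference depends on genotype. Errors are standard errors of the log2 fold change, and printed CPM use the TMM factors. The fits were tested on simulated data. There the likelihood ratio test made more false calls than the quasi-likelihood test, most for dependence on genotype.

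Genes were named by a rule: in each direction the 10 largest log2 fold changes among called genes with no overlap between regions and a mean of at least 20 CPM over both regions, the 5 smallest p in each direction, the 5 smallest p for dependence on genotype, Hdc, and members of 24 gene lists and 16 gene families. The members of the comparison were set by their tissue labels. Earlier results of these data were known when they and the lists were chosen. The examples taken from lists were picked with their values known. List results are counts and medians beside those of all genes, with no set test. Symbols were matched by GENCODE M21; 3 of the 321 listed symbols (Gpr52, Slc18a3 and Lhfpl3) had no match. Promoter windows of 300 bases came from RefSeq on GRCm38.p6.

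Alternatives were the edgeR quasi-likelihood test, DESeq2 1.42.0, other scalings and filters, all 28 libraries, other model terms, a block for the digit in the library name, het or KO libraries alone, each library left out, and dorsal striatum WT 2 and KO 7 left out. For the dependence on genotype, leaving out both of these libraries, and het and KO libraries alone, were chosen after seeing the data, as was leaving out both libraries for counts at 16-fold or more and for the furthest log2 fold changes. The digits were checked for pairing between regions, and libraries of a group for duplication. Ventral striatum and hypothalamus libraries were not tested here. Some genes that the naming rule or the lists include are not reported here.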

Additional observations from a re-analysis of the deposited data

Results flagged for a closer look

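Over the named genes and the lists and regions, 106 groups of libraries were screened for a single library far from the rest of its group, and 17 had one. The limit used flags about 1 in 20 groups where values are normal and groups independent. These groups reuse the same libraries and CPM need not be normal, so 17 of 106 cannot be set against that rate. Dorsal striatum KO 7 was the highest of the striatal libraries for 9 genes, with values in CPM of 165 for Slc17a7 (others up to 52.2), 14.9 for Slc30a3, 12.8 for Nrn1, 65.3 for Tbr1, 13.6 for Neurod2, 16.8 for Neurod6, 26.0 for Cck, 15.1 for Scube1 and 9.36 for Ccn2. All but Ccn2 are named for being higher in the cortex. Dorsal striatum KO 8 was far above the other striatal libraries for the summed choroid plexus genes, at 2671 CPM, and for meninges and fibroblasts, at 125 (others 43.6 to 65.6). Ependymal genes summed to 45.1 CPM in dorsal striatum het 4 and to 16.9 in motor cortex KO 8 (others 7.74 to 10.02). Dorsal striatum WT 1 was highest for the summed dopamine signalling genes, at 14749.9 CPM (others 10722 to 12311), for Syndig1l, at 259.8, and for Rgs9, at 559; per library total alone KO 7 was highest for all 3, and WT 1 has the lowest TMM factor (0.791). Gpr6 was at 0 in motor cortex het 5 and at 0.477 to 0.664 CPM in the other cortical libraries.

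The region difference depended on genotype, by an interaction term in edgeR, for 18 genes among those named or listed. The adjusted p were 5.20e-05 for Mobp, 0.000307 for Cnp and Ccn2, 0.000489 for Cldn11, 0.000496 for Mog, 0.000799 for Cplx3, 0.00214 for Ermn and 0.00230 for Mbp. Further values were 0.00255 for Chrm2, 0.00425 for Apod, 0.00501 for Fa2h, 0.00528 for Sema5a, 0.00796 for Kcnj2, 0.00850 for Tmem88b, 0.0160 for Tspan2, 0.0220 for Mal, 0.0252 for Trf and 0.0457 for Prlr. The edgeR quasi-likelihood test called 0 of the genes tested, with 603 at an unadjusted p below 0.05, against 32 and 764 with the likelihood ratio test.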

How the results depend on the processing

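Between 3744 (KO libraries alone) and 6754 (all 28 libraries) genes differed between regions over all alternatives, and among genes called in both an alternative and the reported fit 0 had opposite directions. Of 780 values for the 30 named genes over 26 alternatives, 779 kept their direction and their side of the threshold. The exception was Ccn2 in KO libraries alone, at -0.79 (edgeR adjusted p = 0.424). The cause was not tested. Most of the 30 genes were chosen from these libraries for a large difference without overlap or a small p. The alternatives reuse the same libraries, so the choice itself favours values that keep their direction. Over these genes and the lists and families not given below, 3063 values were unchanged by the rule for their kind, and 212 moved. Genes were judged by direction and call, list medians by the spread between libraries, and list counts by a set ratio to the reported count.

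Dopamine signalling had a median of -3.52 with library size alone and -3.54 with no filter, and excitatory neurons 5.73 without dorsal striatum WT 2 and KO 7; the cause of the first 2 was not tested. With het libraries alone, 2060 genes were higher in dorsal striatum, 1 myelin gene and 1 dopamine signalling gene were higher in motor cortex, and the medians were 5.50 for excitatory neurons, 0.64 for deep layers and -2.86 for the direct pathway. With KO libraries alone, where fewer libraries are used, 3744 genes were called, 2004 higher in cortex and 1740 in striatum. The medians were 3.09 for excitatory neurons, 0.90 for upper layers, 0.59 for deep layers, -2.32 for the direct pathway, -6.16 for the indirect pathway and -1.50 for myelin.

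Genes whose region difference depends on genotype numbered 32 as reported, 0 with the edgeR quasi-likelihood test (603 at an unadjusted p below 0.05, against 764), 101 with the block, 92 without dorsal striatum WT 2 and KO 7, and 18 with het and KO libraries alone; the cause was not tested. In the labels each library digit goes with a single genotype, and the check for pairing cannot show whether a digit marks a mouse. Deviations of libraries with the same digit had correlations of 0.007 to 0.042 around group means for 4 digits (deviations of 2 libraries around their mean mirror each other). From the fit of region and genotype the correlations were -0.313 to -0.137 for all 5 digits. In that fit the deviations of a genotype cancel over both regions, which favours negative values. The block gave 6398 genes called between regions.

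Leaving out each library in turn, the lowest and highest values were as follows. Genes called ran from 5735 to 6531, with 2946 to 3328 higher in cortex and 2789 to 3203 in striatum. At 2-fold or more they were 2072 to 2165, with 1099 to 1197 and 948 to 1010. List medians ran from 4.34 to 5.33 for excitatory neurons, 0.28 to 0.71 for upper layers, 0.81 to 1.04 for deep layers, -3.43 to -3.32 for shared spiny neuron genes, -2.61 to -2.43 for the direct pathway, -6.69 to -6.42 for the indirect pathway, -1.09 to -0.79 for myelin and -3.66 to -3.60 for dopamine signalling. Upper-layer genes higher in striatum numbered 3 to 6 and in cortex 7 to 8; myelin genes higher in cortex numbered 0 to 1 and in striatum 26 to 27; and deep-layer genes higher in striatum 4 to 5. Counts for the other 5 lists did not move. Genes whose region difference depends on genotype ran from 10 to 74. Where motor cortex WT 2 is left out, the region difference rests on het and KO. At these depths 1 count is about 0.2 CPM, which limits genes near the filter.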
